A study of Homo sapiens with 6 samples.

Results

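The genes of the TCA cycle and of fatty acid beta-oxidation were examined in LNCaP cells that overexpressed Gα13, as a set of 38 genes chosen by name. All 38 were among the 17297 gene symbols of the table, and all had a mean log2 CPM (read counts scaled to library size, in log2) over 1, so none was lost to low counts. The set held 21 genes of pyruvate entry and the TCA cycle and 17 genes of beta-oxidation. LNCaP is an established, androgen-responsive human prostate cancer cell line. It was studied as 2 stable lines, pBabe-Gα13, transduced with wild-type GNA13 cDNA in the retroviral vector pBabe, and pBabe-vector, which carried the empty vector. Both lines were kept in puromycin and grown on plates for 48 h, and RNA sequencing gave 3 libraries per line. Each condition was 1 stable line, so its replicates were cultures of that line and p-values rest on spread among cultures, not among lines.

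Pyruvate enters the TCA cycle either as acetyl-CoA, through the pyruvate dehydrogenase complex, or as oxaloacetate, through pyruvate carboxylase. Fatty acids enter as acetyl-CoA after the carnitine shuttle has carried them into mitochondria and repeated rounds of dehydrogenation, hydration, oxidation and thiolysis have shortened them. Prostate epithelium is known for secreting citrate, which normal luminal cells spare from oxidation, while prostate cancer cells oxidise it and also burn fatty acids.

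The libraries held 33002160 to 40628970 counts. GNA13 was expressed at 820, 886 and 747 CPM in the std library, replicate 2 and replicate 3 of pBabe-Gα13, and at 76.7, 69.4 and 65.4 CPM in the same order in pBabe-vector (log2 fold change 3.54, standard error 0.12, adjusted p = 9.12e-05, quasi-likelihood test of edgeR, Benjamini-Hochberg over all genes). Of the cell type markers, 9 of 9 prostate luminal genes were in the table, with a summed level of 6424 to 9175 CPM in pBabe-Gα13 and 5546 to 8228 CPM in pBabe-vector. The 3 basal markers summed to 4.49 to 8.26 CPM against 2.38 to 2.48 CPM, and the 3 fibroblast markers to 17.5 to 23 CPM against 12 to 23.3 CPM. The basal sums did not overlap between the lines, and their part in the results was not tested. Of 3 endothelial markers 1 was in the table, at 14.6 to 30.5 CPM against 6.54 to 20.6 CPM, and its part in the results was not tested either. None of 3 leukocyte markers was in the table. A change in the share of a cell type and a change in RNA per cell cannot be told apart in such libraries.

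No gene of the set passed the test without pairing of the libraries (0 of 38, against 24 of 17297 genes or 0.139% of the table; edgeR, adjusted p under 0.05). Without adjustment, 4 had a p under 0.05, ACADS, DECR1, ACAA2 and IDH3G, and the share of all genes with such a p was not counted. DESeq2 called 1 gene of the set, ACADS (adjusted p = 0.0356), against 271 genes of the table, and limma-trend called 0, against 5. Libraries with the same tag or number deviated together across the 2 lines, and a second edgeR fit therefore took the pair as a block. The p-values of that fit set each change against a spread within pairs that edgeR moderates across genes. They therefore do not rest on the pair differences of a single gene alone. ETFDH, with log2 pair differences of 0.010, −0.017 and 0.013, had a standard error of 0.053 in that fit. DLAT, with −0.017, −0.246 and −0.028, had one of 0.054. Below, fold changes and standard errors are those of the unpaired fit, and every p called unpaired or paired is an adjusted p of edgeR without or with the block. In the paired fit 13 of 38 passed (34.2%), against 19.7% of the whole table and 24.3% of the 12778 genes whose mean log2 CPM exceeded 1. Of the 13, 6 were higher in pBabe-Gα13 (9.32% of the table was) and 7 were lower (10.4% of the table was). The higher genes were ACADS, DECR1, CS, IDH1, CPT2 and HADHB, and the lower ones ACAA2, IDH3G, IDH3A, ETFA, ACADVL, CPT1A and ECI1. Changes were small, and 34 of 38 genes had a fitted fold change within 1.2-fold (82.1% of the 12778 genes did). Only 4 of 38 genes had groups that did not overlap, against 14.6% of the 12778 genes. ACADS and CPT2 were higher and IDH3G and ETFA lower in each pBabe-Gα13 library than in any pBabe-vector library. Exact permutation gave p = 0.10 for each, which 3 against 3 libraries cannot go below. Groups that do not overlap always give this value, so it adds nothing to the lack of overlap. The direction was the same in 3 of 3 pairs for 23 of 38 genes, 11 higher and 12 lower, against 54.3% of the 12778 genes.

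**Figure D1:**
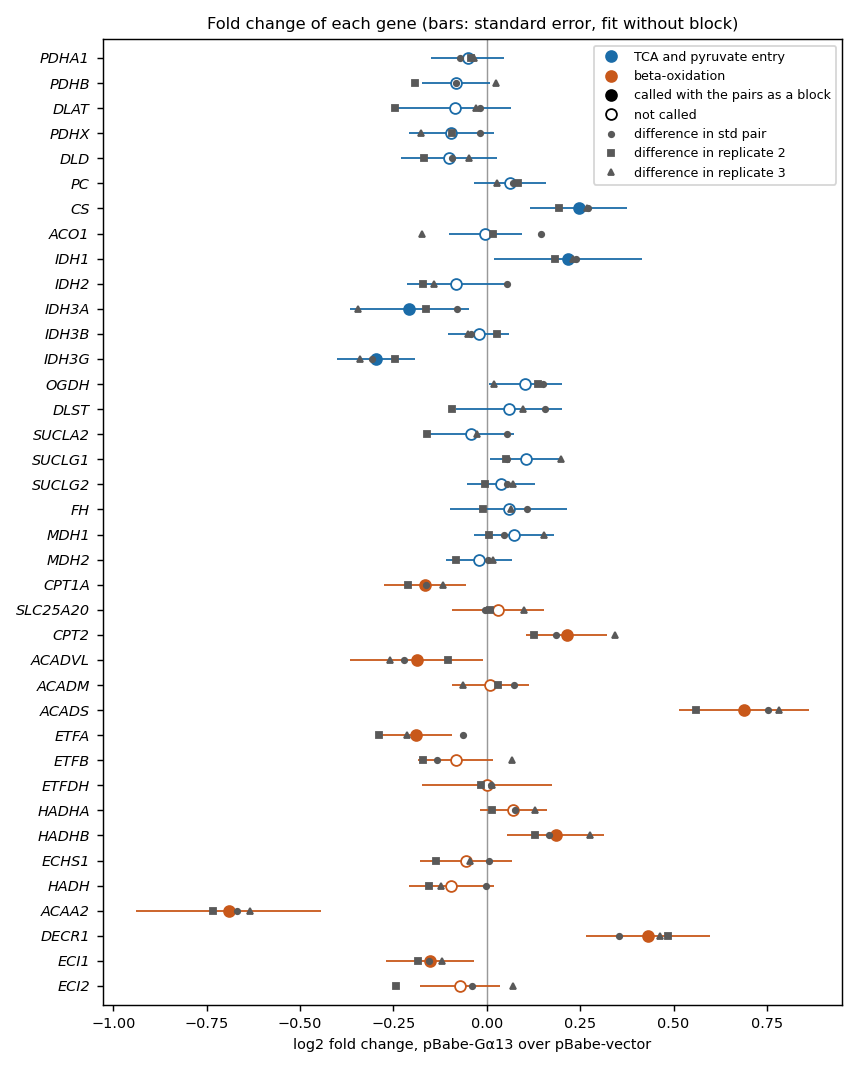
Log2 fold change of pBabe-Gα13 over pBabe-vector for each of the 38 genes, with large points and bars for the value and standard error of the edgeR fit without a block, and small symbols for the difference in log2 CPM within each pair of libraries. Filled points mark the 13 genes called with the block, and ACADS at 0.69 and ACAA2 at −0.69 lie at the ends.

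Levels were compared between genes per kb of exon, with all exons of a gene merged (Gencode 44), a length that can exceed that of a single transcript. In pBabe-vector the levels ran from 1.5 CPM per kb for ACAA2, the thiolase for medium-chain substrates, to 233 CPM per kb for ECHS1, the short-chain enoyl-CoA hydratase. ACADVL (120 CPM per kb) and MDH2 (116 CPM per kb) came next and lay closer to each other than the spread of ACADVL. Among the TCA genes the 3 subunits of the NAD-dependent isocitrate dehydrogenase lay at 5.89 (IDH3A), 27.7 (IDH3B) and 22.4 CPM per kb (IDH3G), below the NADP-dependent enzymes IDH1 (76.0 CPM per kb) and IDH2 (86.9 CPM per kb).

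**Figure D2:**
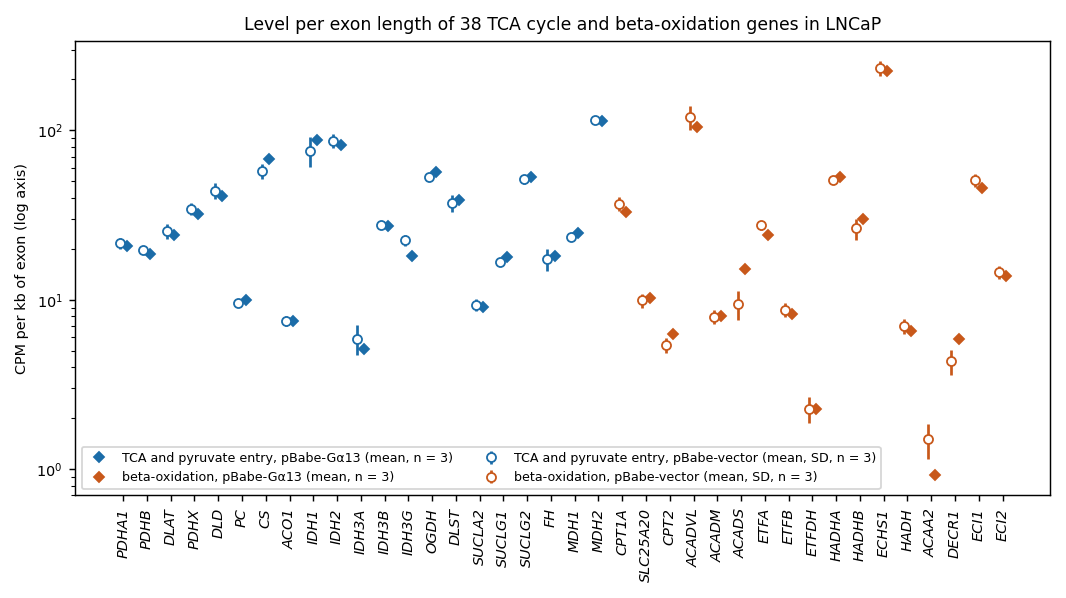
Expression per kb of exon (log axis) of the 38 genes, with open circles for the mean and SD of the 3 pBabe-vector libraries and diamonds for the mean of the 3 pBabe-Gα13 libraries. The levels span from 0.927 CPM per kb for ACAA2 in pBabe-Gα13 to 233 CPM per kb for ECHS1 in pBabe-vector, and the diamonds lie near the circles for most genes.

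Pyruvate entry held 6 genes, and 0 of 6 were called in either edgeR fit, against 24.3% of the 12778 genes with the block. The pyruvate dehydrogenase complex is formed by PDHA1 and PDHB (E1 subunits), DLAT (E2), PDHX (the E3-binding protein) and DLD (E3, which the 2-oxoglutarate dehydrogenase complex shares). Their log2 fold changes were −0.05 for PDHA1, −0.08 for PDHB, −0.09 for DLAT, −0.09 for PDHX and −0.10 for DLD, with standard errors of 0.09 to 0.15. PDHA1, DLAT, PDHX and DLD were lower in 3 of 3 pairs and PDHB in 2 of 3. PC, which carboxylates pyruvate to oxaloacetate, had a log2 fold change of 0.06 and was higher in 3 of 3 pairs. None of the 6 had groups that stood apart, and the lowest adjusted p with the block was 0.171 for DLD (edgeR).

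The citrate and isocitrate steps held 4 of the 13 genes called with the block, out of 7, against 24.3% of the 12778 genes. CS, citrate synthase (chr12:56271699-56300391, GRCh38), was expressed at 422, 391 and 497 CPM in the std library, replicate 2 and replicate 3 of pBabe-Gα13 and at 350, 342 and 413 CPM in pBabe-vector. Replicate 3 was the highest in each line, and the groups overlapped because replicate 3 of pBabe-vector exceeded replicate 2 of pBabe-Gα13. On the log2 scale the fold change was 0.25 (SE 0.13), with an edgeR adjusted p of 0.714 unpaired and 0.000651 paired. IDH1, the cytosolic and peroxisomal NADP-dependent isocitrate dehydrogenase (chr2:208236229-208266074), was at 493, 427 and 325 CPM in pBabe-Gα13 and at 417, 377 and 277 CPM in pBabe-vector. Here replicate 3 was the lowest in each line, the reverse of CS, and every pair was higher in pBabe-Gα13. The fitted log2 change was 0.22 (SE 0.20), with an edgeR adjusted p of 0.910 unpaired and 0.00198 paired.

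IDH3G, the gamma subunit of the NAD-dependent isocitrate dehydrogenase (chrX:153785766-153794512), was at 44.8, 53.1 and 49.7 CPM in pBabe-Gα13 and at 55.4, 63.0 and 62.9 CPM in pBabe-vector. The groups did not overlap. On the log2 scale this came to −0.30 (SE 0.10), with an edgeR adjusted p of 0.461 unpaired and 0.000164 paired. IDH3A, the catalytic alpha subunit (chr15:78131498-78171945), was at 34.0, 31.4 and 39.0 CPM against 36, 35.2 and 49.5 CPM. All 3 pairs were lower in pBabe-Gα13, with the largest difference in replicate 3. The fitted difference was −0.21 (edgeR adjusted p of 0.864 unpaired and 0.0268 paired), and without the replicate 3 pair the blocked value was not called (adjusted p = 0.488). IDH3B, the beta subunit, was not called. It was at 68.6, 73.0 and 68.8 CPM against 70.7, 71.6 and 71.2 CPM, or −0.02 on the log2 scale (paired p of 0.837). IDH2, the mitochondrial NADP-dependent enzyme, had a log2 fold change of −0.08 and ACO1, the cytosolic aconitase that also acts as an iron regulatory protein, one of −0.0037, and neither was called.

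From 2-oxoglutarate to oxaloacetate, 0 of 8 genes were called in either edgeR fit, against 24.3% of the 12778 genes with the block. OGDH and DLST, the E1 and E2 subunits of the 2-oxoglutarate dehydrogenase complex, had log2 fold changes of 0.10 and 0.06. For the succinyl-CoA ligase, the values were 0.10 for the shared alpha subunit SUCLG1, −0.04 for the ADP-forming beta subunit SUCLA2 and 0.04 for the GDP-forming beta subunit SUCLG2. FH, fumarate hydratase, had a log2 fold change of 0.06, and the malate dehydrogenases MDH1 (cytosolic) and MDH2 (mitochondrial) had values of 0.07 and −0.02. All 8 lay within 1.1-fold. OGDH, SUCLG1 and MDH1 were higher in 3 of 3 pairs, and the lowest adjusted p with the block was 0.172 for OGDH (edgeR). MDH2 was at 415 ± 14.1 CPM in pBabe-Gα13 and 421 ± 3.86 CPM in pBabe-vector (SD, n = 3 each).

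With the block, the 2 transferases of the carnitine shuttle changed in opposite directions. CPT1A, which loads fatty acids onto carnitine at the outer membrane and is the controlled step of the pathway (chr11:68754620-68844410), was at 231, 219 and 200 CPM (std library, replicate 2, replicate 3) in pBabe-Gα13 and at 259, 254 and 217 CPM in pBabe-vector. Each pair was lower in pBabe-Gα13, and the groups overlapped. This gave a log2 fold change of −0.17 (SE 0.11), with an edgeR adjusted p of 0.821 unpaired and 0.0215 paired, and the call was lost without the replicate 2 pair (0.106) or the replicate 3 pair (0.0871). CPT2, which releases them inside mitochondria (chr1:53196792-53214197), was at 67.2, 61.5 and 60.9 CPM against 59.1, 56.3 and 48.0 CPM, and its groups did not overlap. The fit put the change at 0.21 (SE 0.11), with an edgeR adjusted p of 0.702 unpaired and 0.0052 paired, or 0.138 paired without the replicate 3 pair. SLC25A20, the carnitine-acylcarnitine carrier between them, had a log2 fold change of 0.03 and was not called (paired p of 0.835).

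**Figure D3:**
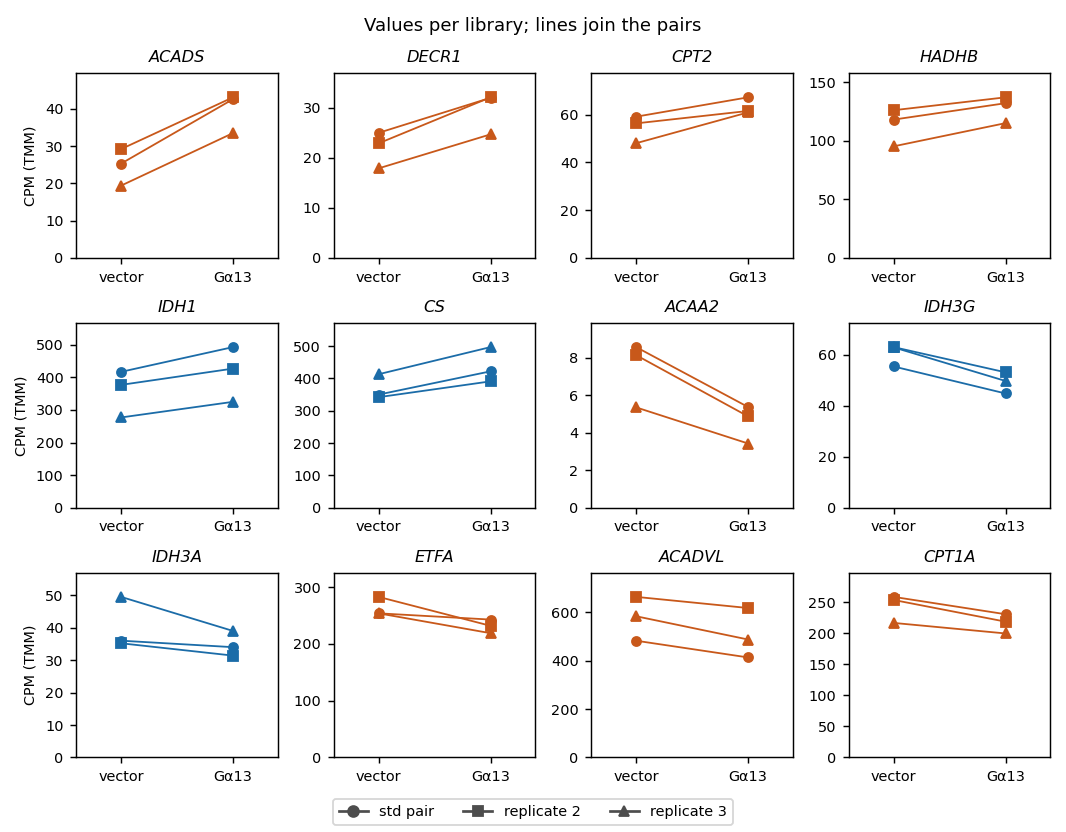
CPM of 12 of the 13 genes called with the block in the 6 libraries, with the pairs of libraries joined by lines and each axis starting at 0. ACADS, DECR1, CPT2, HADHB, IDH1 and CS are higher in pBabe-Gα13 in each pair, and ACAA2, IDH3G, IDH3A, ETFA, ACADVL and CPT1A are lower. ECI1 is not drawn.

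Of the acyl-CoA dehydrogenases, which take substrates by chain length, the short-chain and very-long-chain enzymes differed in direction. ACADS, the short-chain enzyme (chr12:120725774-120740008), was at 42.6, 43.1 and 33.5 CPM in pBabe-Gα13 and at 25.3, 29.2 and 19.4 CPM in pBabe-vector. The lowest pBabe-Gα13 library lay above the highest pBabe-vector library. Its log2 fold change of 0.69 was the highest of the set (SE 0.17), with an edgeR adjusted p of 0.306 unpaired and 1.19e-08 paired. ACADVL, the very-long-chain enzyme (chr17:7217125-7225266), was at 413, 617 and 487 CPM against 482, 663 and 583 CPM. The std library was the lowest and replicate 2 the highest in each line, and each pair was lower in pBabe-Gα13. The fitted log2 value was −0.19 (SE 0.18), with an edgeR adjusted p of 0.910 unpaired and 0.00585 paired, or 0.137 paired without the replicate 3 pair. ACADM, the medium-chain enzyme, had a log2 fold change of 0.01 (paired p of 0.919).

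Electrons from these enzymes pass to the electron transfer flavoprotein and from there to the respiratory chain. ETFA, its alpha subunit (chr15:76188555-76311730), was at 243, 232 and 219 CPM in pBabe-Gα13 and at 254, 283 and 254 CPM in pBabe-vector. The groups did not overlap, although the std libraries differed by only −0.06 in log2 CPM. The change came to −0.19 (SE 0.10), with an edgeR adjusted p of 0.705 unpaired and 0.0118 paired, and the call was lost without the replicate 2 pair (0.109) or the replicate 3 pair (0.119). Its partner ETFB had a log2 fold change of −0.08 (paired p of 0.370), and the acceptor ETFDH one of 0.0016 (paired p of 1.00).

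HADHA and HADHB encode the alpha and beta subunits of the mitochondrial trifunctional protein, which carries out the later steps for long chains. The 2 genes lie head to head on chromosome 2, and RefSeq places 306 bases between their starts. In Gencode 44 the earliest annotated start of HADHB is 26243170, so that these bases lie inside the span of HADHB there. The stretch shown is the part of them where the RefSeq promoter windows of the 2 genes overlap, without the bases next to each start, and is given because both windows hold it. It runs over chr2:26244689-26244882 (GRCh38.p14, forward strand), is 194 bases long, has a GC content of 68.6% and holds 14 CpG.
HADHA and HADHB shared stretch: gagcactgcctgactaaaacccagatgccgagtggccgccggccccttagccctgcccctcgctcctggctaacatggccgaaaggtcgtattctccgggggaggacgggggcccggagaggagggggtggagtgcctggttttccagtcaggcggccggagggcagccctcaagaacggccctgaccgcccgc
HADHB was at 132, 137 and 115 CPM in pBabe-Gα13 and at 118, 126 and 95.2 CPM in pBabe-vector, and HADHA at 234, 232 and 226 CPM against 222, 230 and 207 CPM. Both were higher in 3 of 3 pairs, and replicate 3 was the lowest library for both genes in each line. The direction was the same in 3 of 3 pairs for 54.3% of the 12778 genes. The log2 fold change was 0.19 for HADHB (SE 0.13), with an edgeR adjusted p of 0.839 unpaired and 0.0105 paired. HADHA had a value of 0.07 (SE 0.09, 0.949 unpaired and 0.369 paired). The median log2 fold change over 767 genes of chromosome 2 was also 0.07. Without the replicate 3 pair HADHB was not called (paired p of 0.162). Whether the 2 values differ was not tested.

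Short and medium chains are handled by separate enzymes. ECHS1, the hydratase, had a log2 fold change of −0.06 and HADH, the 3-hydroxyacyl-CoA dehydrogenase, one of −0.10, and neither was called. ACAA2, the thiolase (chr18:49782164-49813953), was at 5.38, 4.88 and 3.43 CPM in pBabe-Gα13 and at 8.58, 8.15 and 5.36 CPM in pBabe-vector. Every pair was lower in pBabe-Gα13, and the groups overlapped only by replicate 3 of pBabe-vector, which lay just under the std library of pBabe-Gα13. The log2 fold change was −0.69, the lowest of the set (SE 0.25), with an edgeR adjusted p of 0.466 unpaired and 0.000143 paired. ACAA2 was also the gene of the set with the lowest CPM.

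Unsaturated fatty acids need auxiliary enzymes. DECR1, the mitochondrial 2,4-dienoyl-CoA reductase (chr8:90001405-90053633), was at 32.0, 32.1 and 24.7 CPM in pBabe-Gα13 and at 25.0, 22.9 and 17.9 CPM in pBabe-vector. Replicate 3 was the lowest in each line, and the groups overlapped only in that replicate 3 of pBabe-Gα13 lay just under the std library of pBabe-vector. The log2 fold change was 0.43 (SE 0.17), with an edgeR adjusted p of 0.522 unpaired and 3.81e-05 paired. ECI1, an enoyl-CoA isomerase (chr16:2239402-2252300), was at 132, 144 and 163 CPM against 147, 163 and 177 CPM, lower in each pair. Its log2 fold change was −0.15 (SE 0.12), with an edgeR adjusted p of 0.867 unpaired and 0.0338 paired, and the blocked call was lost with a correction for GC content and length (0.0801) and without the std (0.0821), replicate 2 (0.131) or replicate 3 pair (0.153). ECI2, the second isomerase, had a log2 fold change of −0.07 (paired p of 0.436).

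The pathway arms were also set side by side. With the block, 4 of 21 TCA and pyruvate entry genes (19.0%) and 9 of 17 beta-oxidation genes (52.9%) were called, against 19.7% of the table and 24.3% of the 12778 genes. Without the replicate 3 pair the counts were 3 of 21 and 3 of 17, against 2250 of 17297 genes of the table in that fit. The larger share of beta-oxidation calls therefore depended on that pair. The difference between the arms was not tested, since genes are not replicates. The calls did not share a direction in either arm, with 2 higher and 2 lower in the TCA arm and 4 higher and 5 lower in beta-oxidation. Without the cytosolic genes ACO1, IDH1 and MDH1, 3 of 18 genes of the TCA arm were called, 1 higher and 2 lower. The median size of the log2 fold change, without its sign, was 0.08 for the TCA arm, 0.15 for beta-oxidation and 0.11 over the 12778 genes. The median with its sign was −0.02 for the TCA arm, −0.06 for beta-oxidation and −0.01 over the 12778 genes, and it turned above 0 for both arms without replicate 2 of pBabe-Gα13 (0.0064 and 0.0031). Summed over its genes, beta-oxidation was at 2210, 2350 and 2241 CPM (std library, replicate 2, replicate 3) in pBabe-Gα13 and at 2278, 2513 and 2348 CPM in pBabe-vector. The sum was lower in each pair, and the groups overlapped. ACADVL, the gene with the highest CPM of the arm, was itself lower in each pair. In the std pair ACADVL was at 413 CPM against 482 CPM, a fall about as large as that of the sum. The TCA arm summed to 3702, 3361 and 3634 CPM in pBabe-Gα13 and to 3506, 3378 and 3525 CPM in pBabe-vector, higher in the std and replicate 3 pairs and lower in replicate 2.

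Replicates of the same number tended to differ in the same direction in both lines. Replicate 3 lay above replicate 2 in both lines for 11 of 21 TCA and pyruvate entry genes and below it in both for 7. In beta-oxidation it lay above in both for 4 of 17 genes and below in both for 12. Over the 12778 genes, the sign was shared by the lines for 83.8%. The median range over the 3 replicates of a line was 0.25 in pBabe-Gα13 and 0.26 in pBabe-vector on the log2 scale for the 38 genes, against 0.33 in each line over the 12778 genes. The median size of the log2 fold change of the 38 genes was 0.08.

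**Figure D4:**
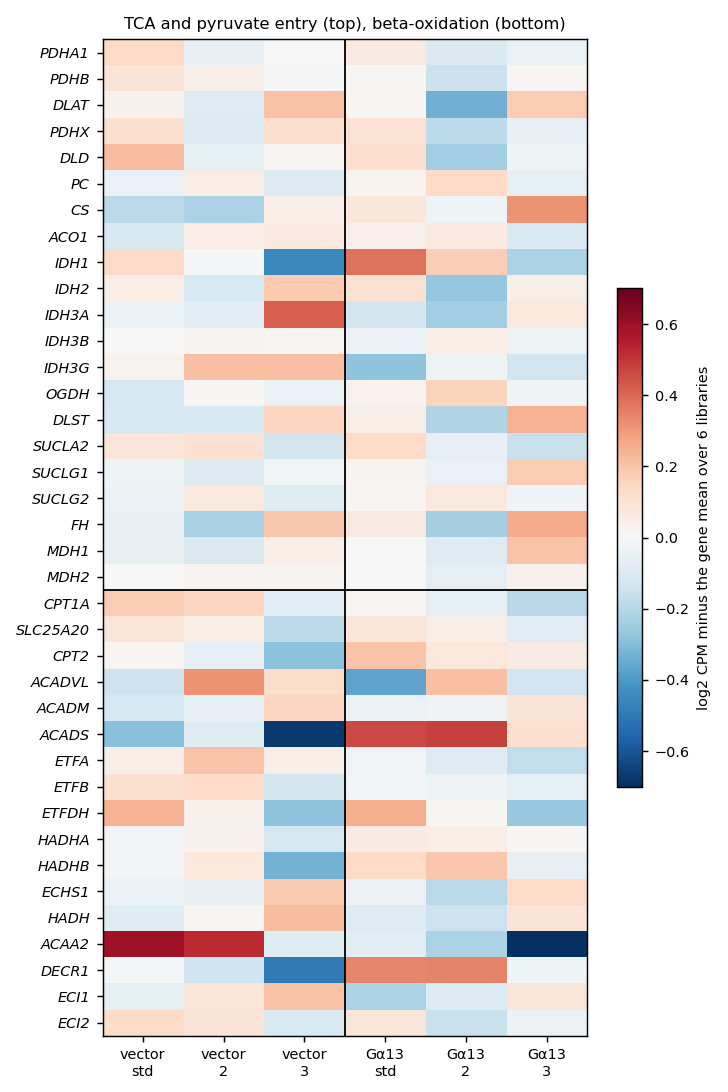
Log2 CPM of each gene minus its mean over the 6 libraries, with pBabe-vector on the left of the vertical line and pBabe-Gα13 on the right, and the TCA arm above the horizontal line. Genes such as IDH1, DLAT and FH differ between replicates in the same way on both sides, while ACADS, DECR1 and ACAA2 also differ between the sides.

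The median log2 fold change differed between chromosomes. CS and ACADS both lie on chromosome 12, where the median log2 fold change over 621 genes was 0.30. Relative to that median, with the block, CS was at −0.05 and no longer called (edgeR adjusted p = 0.583), and ACADS was at 0.40 and still called (8.25e-05). DECR1 was at 0.49 relative to chromosome 8, so ACADS was no longer the highest of the set there. IDH3B lies on chromosome 20, with a median of −0.21 over 339 genes, and relative to it turned to 0.18 and was called (0.0152). With chromosome medians, 8 of 38 genes were called in the blocked fit, against 13.9% of the table. They were ACADS, DECR1, CPT2, IDH1 and IDH3B on the higher side and ACAA2, IDH3G and ACADVL on the lower side. The blocked calls of IDH3A (0.124), CPT1A (0.144), ETFA (0.0809), HADHB (0.140) and ECI1 (0.144) were also lost there. HADHA was at 0.0029 relative to its chromosome, with the block (edgeR adjusted p = 0.994). ACAA2, ACADS, DECR1, IDH1 and IDH3G were called with the block, with chromosome medians, with the GC and length correction and without each pair in turn. The share of all genes called in each of these fits was not counted. IDH1 was near the threshold with chromosome medians, at 0.15 (edgeR adjusted p = 0.0441).

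**Figure D5:**
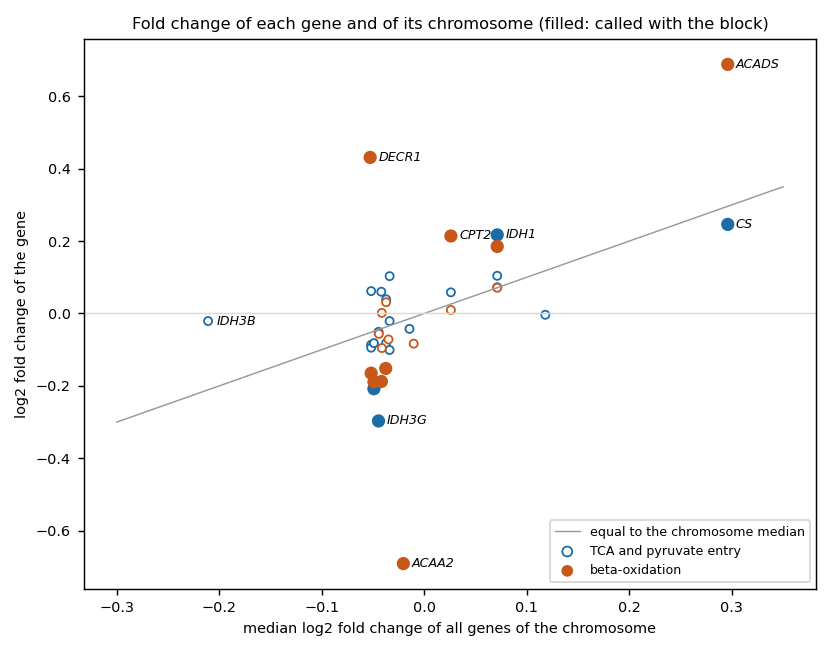
Log2 fold change of each of the 38 genes against the median log2 fold change of all genes of its chromosome, with the grey line where the 2 are equal and filled points for genes called with the block. CS lies near the line at the chromosome 12 median of 0.30, while ACADS, DECR1, ACAA2 and IDH3G lie away from it.

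Other genes of these pathways were taken from 6 lists of 87 genes, of which 84 were in the table. Without the block 0 of 84 were called by edgeR, and DESeq2 and limma-trend called 0 as well. Only 3 of the 84 (PDK2, ACACB and ESRRG) had an unadjusted edgeR p under 0.05, and the share of all genes with such a p was not counted. With the block 25 of 84 were called, 11 higher and 14 lower, against the 19.7% of the table given above. Of the 25 calls, 6 held without each pair in turn, those of PDK2, OGDHL, ME1, ACAT1, ACACB and AMACR. The share of all blocked calls of the table that held in this way was not counted. Among pyruvate carriers and regulators of pyruvate dehydrogenase, 4 of 9 were called, against 24.3% of the 12778 genes. PDK2, a kinase that inhibits the complex, was at 17.5 ± 2.85 CPM in pBabe-Gα13 and 23.3 ± 3.29 CPM in pBabe-vector (SD, n = 3 each), or −0.41 in log2 fold change (edgeR adjusted p of 0.554 unpaired and 0.000167 paired). Another of these kinases, PDK1, was at 0.16 (paired p of 0.0283), and MPC1, a subunit of the mitochondrial pyruvate carrier, at −0.27 (paired p of 0.0166). Without the replicate 3 pair neither was called (0.383 for PDK1 and 0.158 for MPC1), nor was MPC1 without replicate 2 (0.107). In the list of other TCA enzymes and lipoylation, 3 of 12 were called, 1 higher and 2 lower, a share near that 24.3%. OGDHL, a paralog of OGDH, was at −0.45 (paired p of 6.03e-05).

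Anaplerotic enzymes and metabolite carriers held 4 of 15 called genes, 0 higher and 4 lower, against 24.3% of the 12778 genes called in either direction and 10.4% of the table called lower. ME1, the cytosolic malic enzyme, was at 102 ± 23.0 CPM against 135 ± 43.0 CPM (SD, n = 3 each), or −0.41 in log2 fold change (edgeR adjusted p of 0.785 unpaired and 1.5e-05 paired). PCK2, the mitochondrial phosphoenolpyruvate carboxykinase, had a value of −0.21 (paired p of 0.00607), and SLC25A1, the mitochondrial citrate carrier, one of −0.23 (paired p of 0.00631). SLC25A1 lies on chromosome 22 and was not called relative to the median there (0.478) or without replicate 2 (0.166), and PCK2 not without the std pair (0.0570). Of the other mitochondrial acyl-CoA and ketone body enzymes, 10 of 25 were called, 5 in each direction, against 24.3% of the 12778 genes. ACAT1, the acetoacetyl-CoA thiolase, was at 152 ± 21.2 CPM against 197 ± 34.3 CPM (SD, n = 3 each), or −0.37 in log2 fold change (edgeR adjusted p of 0.594 unpaired and 9.09e-06 paired). ACACB, whose product malonyl-CoA inhibits CPT1A, had a value of 0.44 with groups that did not overlap (paired p of 0.000171), and 0.14 relative to chromosome 12, where it was not called (0.261).

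Peroxisomal beta-oxidation had 1 of 11 genes called, against 24.3% of the 12778 genes. It was AMACR, the racemase for branched-chain substrates that is used as a prostate cancer marker. Its log2 fold change was 0.36 (paired p of 0.00123). HSD17B4 had a value of 0.13 (paired p of 0.0540) and DECR2 one of 0.16 (paired p of 0.0795). Among regulators 3 of 12 were called, all higher, a share near the 24.3% of the 12778 genes called with the block in either direction. They were PRKAA2 (0.40, paired p of 0.00191) and PRKAG1 (0.16, paired p of 0.0343), subunits of the AMP-activated kinase, and ESRRG, an orphan nuclear receptor with a mean of 0.871 CPM in pBabe-Gα13 and 0.351 CPM in pBabe-vector (1.32, paired p of 0.0118). PRKAG1 lies on chromosome 12 and was at −0.14 relative to it (0.0817). All 3 calls were lost without replicate 2 (0.0714 for PRKAA2, 0.0511 for PRKAG1 and 0.0763 for ESRRG), and those of PRKAG1 (0.178) and ESRRG (0.0666) also without the std pair. PRKAG1 was not called without replicate 3 either (0.112).

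In Gencode 44, 21 of the 38 genes share an exon with another annotated gene, and the strand setting of the counting was not stated, so their reads may hold reads of a neighbour. IDH3G overlaps SSR4 on the opposite strand, which was expressed at 169 CPM with a log2 change of −0.18 (paired p of 0.0144). ACADM overlaps RABGGTB on the same strand, at 135 CPM with a log2 fold change of −0.36 (paired p of 1.53e-05). The part of these neighbours in the values of IDH3G and ACADM was not tested.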

How the data were processed

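RNA of 3 pBabe-Gα13 and 3 pBabe-vector cultures was sequenced as paired-end reads. Per the methods, the authors checked reads with FastQC 0.11.7, used STAR for alignment and featureCounts for counting on Gencode 38. They name the Rsubread package for featureCounts, TMM for library sizes and limma for testing, and the strand setting was not given in the sources used here. The deposited table is named for CPM and the methods speak of log2 CPM, but its values are whole numbers with column totals of 33002160 to 40628970. They were therefore read as raw counts per gene symbol, for 17297 genes. Before TMM factors are applied, 1 read equals 0.0246 to 0.0303 CPM.

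TMM factors (0.963 to 1.05) and edgeR 4.0.16 quasi-likelihood tests (R 4.3.3) were computed over all 17297 genes without a filter, with Benjamini-Hochberg adjustment and a call at an adjusted p under 0.05. CPM include the TMM factors, with a prior count of 2 before taking log2. Per-gene tests of 3 against 3 libraries were exact, two-sided permutation tests. Tables and figures were made with Python 3.11.15, NumPy 2.4.6, pandas 2.3.3 and matplotlib 3.10.9.

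Libraries were paired by the tag std or the number 2 or 3 in the column headings. The headings with std end in different numbers (2 in pBabe-Gα13, 1 in pBabe-vector), so that pair rests on the tag alone. Deviations from the group means correlated at r = 0.659, 0.807 and 0.888 within pairs (across 12778 genes, which are not independent replicates) and at −0.736 to 0.125 otherwise, so the pairs served as a block in the second fit. Each line was centred on the mean of its 3 libraries, so the std deviations follow from those of replicates 2 and 3. The correlation of the std libraries is thus no separate evidence for their pairing, and centring pulls the values between pairs below 0. The heading of the pBabe-Gα13 std library names its group but not which of that group's samples it is. Within each line, no 2 libraries agreed within sampling noise.

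The genes, the lists, the markers and the alternatives were chosen with earlier results of these data known. Named are the 38 genes, GNA13 and, of each list, the 3 genes with the smallest p in the blocked fit. Some genes under this rule are not reported here. SSR4 and RABGGTB were named after their values were seen. Of a further list of 4 hepatocyte and muscle genes, 1 was in the table, at 0.0588 to 4.24 CPM in pBabe-Gα13 and 0.0886 to 0.858 CPM in pBabe-vector. ACADL, ACAD11 and PPARGC1A were not analysed here. Positions and exon lengths came from Gencode 44, and 83.6% of symbols matched it. Alternatives were DESeq2 1.42.0, limma-trend (limma 3.58.1), relative log expression factors, a filter on low genes (mean log2 CPM over 1), leaving out each library or pair, chromosome medians as offsets, and a loess correction for GC content and length.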

Additional observations from a re-analysis of the deposited data

How the results depend on the processing

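The largest change came from the replicate block. With it, 13 of the 38 genes were called in place of 0 (4 in the TCA arm, 9 in beta-oxidation), and 3407 genes of the table in place of 24. With the block and the GC and length correction these counts were 12, 4, 8 and 3352, and with the block and chromosome medians 8, 3, 5 and 2404. Leaving the std pair out of the blocked fit gave 12, 4, 8 and 3266, leaving out the replicate 2 pair 10, 4, 6 and 2550, and leaving out the replicate 3 pair 6, 3, 3 and 2250. The 6 calls left without replicate 3 were ACAA2, ACADS, CS, DECR1, IDH1 and IDH3G. DESeq2 called 1 of the 38 genes (ACADS, in beta-oxidation) and 271 of the table, limma-trend called 5 genes of the table, the filter left 10, and an adjusted p under 0.01 left 2. Leaving out each library in turn without the block gave 2 to 15 genes of the table and 0 of the 38. IDH3B turned from −0.02 to 0.18 with the block and chromosome medians, a change that follows from the median of chromosome 20. Of 646 values of the 38 genes under alternatives, 37 had another sign while called under neither setting. Each condition was 1 line in 3 cultures.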
